A study of Mus musculus with 2 samples.

Results

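Probes for splicing factors were compared between pooled mDom-/- and wild-type mouse embryos. The probes were those whose single annotated gene symbol begins with Hnrnp, Srsf, Sf3a, Sf3b, Snrp or Prpf, or is Aqr, with the older prefixes Hnrp and Sfrs also searched. Of 36227 probes on the array, 21615 had a single symbol, and 74 of these, for 57 of 18069 genes, met the rule. No probe was annotated with one of the older prefixes. Total RNA of the whole embryo proper at E8.5 (embryonic day 8.5) was hybridised to CodeLink arrays, which carry 1 oligonucleotide probe per spot and were read in 1 colour. One array held RNA pooled from 45 mDom-/- embryos, homozygous for a mutation of the chromatin-remodelling ATPase gene now called Ep400 (p400, mDomino), and one held RNA pooled from 42 litter-matched wild-type embryos. The labels do not describe the allele, the strain or any treatment, and pooling leaves no measure of the spread between embryos. With 1 array per group there is no replicate error, no test and no p-value.

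Splicing removes introns in steps carried out by the spliceosome, which assembles on each intron from small nuclear ribonucleoproteins (snRNPs) named after their U-rich RNAs. Sm proteins form the ring that the snRNP RNAs share, SF3A and SF3B proteins help the U2 snRNP bind the branch point, and PRP proteins build the tri-snRNP and steer its activation. SR proteins (serine- and arginine-rich) mostly favour the use of an exon, whereas hnRNP proteins (heterogeneous nuclear ribonucleoproteins) coat nascent transcripts and often oppose it. These genes are expressed in nearly all dividing cells of an embryo.

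Intensities below are in units of the array median. Values under a floor of 0.541 were raised to it, and each log2 ratio is that of mDom-/- over wild-type, so that a positive one means more signal in the mDom-/- pool. A gene took its brightest probe, and the SD of a log2 ratio between probes of the same gene, 0.25 over 1302 genes with 2 such probes measured on both arrays, is the one internal yardstick. Levels of different genes are not compared, because each probe binds with its own efficiency. In whole-embryo RNA, fewer cells of a type and less RNA per cell cannot be told apart.

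Splicing factor signal was close between the pools, apart from Aqr. Of the 57 genes, 56 had a probe above the floor on both arrays. Sf3a2, which encodes a subunit of SF3A, read 0.374 in the mDom-/- pool and 0.283 in the wild-type pool and was not compared. Aqr alone was at least 2-fold higher in the mDom-/- pool, 1 of 56 genes, and 0 of 56 were at least 2-fold lower. Over all 13137 compared genes the shares were 0.845% higher and 0.929% lower. Of the 11926 genes measured on both arrays, as all 56 were, 65 were 2-fold higher and 71 were 2-fold lower. At 1.5-fold, Aqr was again the only gene higher and 3 genes were lower (Hnrnpul1, Hnrnph2 and Sf3b1). The shares were 4.09% higher and 4.35% lower over all genes, and 3.22% and 3.41% over genes measured on both arrays. Aqr entered the rule by its own name, not by a family prefix, with earlier results of these data known. Its call is therefore no result about the group, and no gene of the prefix families was 1.5-fold higher. The median log2 ratio of the 56 genes was -0.04, and that of all compared genes -0.004. Of the 56 genes, 45 (80.4%) lay within 0.25 of 0 on the log2 scale, against 63.7% of all compared genes and 66.3% of those measured on both arrays. Most of the 56 were bright, and bright genes varied less. Above a mean intensity of 10 array medians 40 of 44 lay within 0.25, against 77.2% of all genes that bright. Of the dimmer ones 5 of 12 did, against 56.6%.

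**Figure D1:**
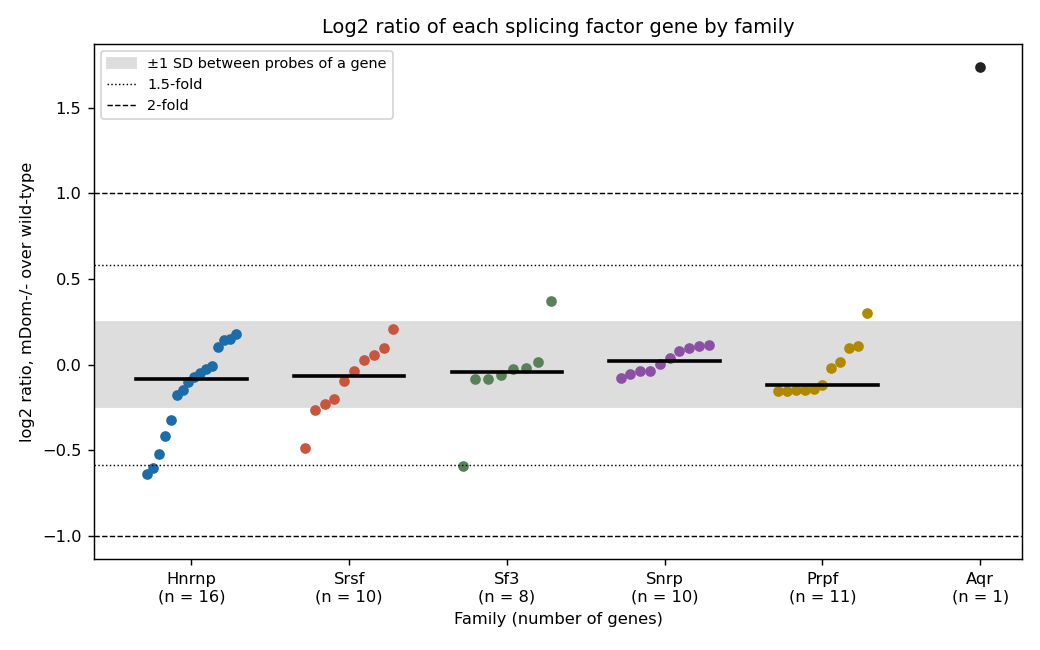
Log2 ratio (mDom-/- over wild-type) of each of the 56 compared splicing factor genes, 1 point per gene, by family, with horizontal bars at the family medians, a grey band of 1 SD between probes of the same gene (0.25) and lines at 1.5-fold and 2-fold. Aqr at 1.74 stands above the 2-fold line, 3 genes lie below the lower 1.5-fold line, and all 10 Snrp genes lie inside the grey band.

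Aqr encodes Aquarius, an RNA helicase that joins the spliceosome through the intron upstream of the branch point. Its single probe read 2.30 in the mDom-/- pool and 0.689 in the wild-type pool. The mDom-/- value was 3.33-fold higher, a log2 ratio of 1.74. Its wild-type value was close above the floor of 0.541, so the size of the ratio rests on a dim spot, and with the floor at the 60th percentile the log2 ratio was 0.38. The probe is annotated to a sequence that is not among the RefSeq mRNAs of the gene, and no further Aqr probe was there to compare.

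The sequence before the start sites of the 4 genes at least 1.5-fold apart, and of Sf3b6, the highest Sf3 gene, is printed below so that the letters near each start can be set beside the ratios. Each run is the 250 bases upstream of the RefSeq start in GRCm38.p6, written 5′ to 3′ on the strand of the gene. Capitals mark exact matches, on either strand, to 7 motifs searched: ETS (CCGGAAG), NRF1 (GCATGCGC), YY1 (AAGATGGC), the GC box (GGGCGG), the CCAAT box (CCAAT), the E-box (CACGTG) and the TATA box (TATAAA).
Aqr, chr2:114175340-114175589, minus strand: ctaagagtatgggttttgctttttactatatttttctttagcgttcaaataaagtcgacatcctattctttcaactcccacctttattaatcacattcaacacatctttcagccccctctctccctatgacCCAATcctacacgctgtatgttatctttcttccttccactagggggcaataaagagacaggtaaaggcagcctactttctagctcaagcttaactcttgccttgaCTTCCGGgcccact
Hnrnpul1, chr7:25754760-25755009, minus strand: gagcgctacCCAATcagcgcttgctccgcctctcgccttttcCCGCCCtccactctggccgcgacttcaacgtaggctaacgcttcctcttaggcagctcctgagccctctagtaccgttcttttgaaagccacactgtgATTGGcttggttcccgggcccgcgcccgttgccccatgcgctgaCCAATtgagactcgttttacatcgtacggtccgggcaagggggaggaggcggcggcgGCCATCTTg
Hnrnph2, chrX:134600929-134601178, plus strand: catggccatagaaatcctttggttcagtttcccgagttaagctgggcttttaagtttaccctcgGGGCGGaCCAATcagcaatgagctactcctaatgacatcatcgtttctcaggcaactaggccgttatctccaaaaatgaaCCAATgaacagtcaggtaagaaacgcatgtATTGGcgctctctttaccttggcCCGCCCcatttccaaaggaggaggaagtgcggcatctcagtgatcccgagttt
Sf3b1, chr1:55027479-55027728, minus strand: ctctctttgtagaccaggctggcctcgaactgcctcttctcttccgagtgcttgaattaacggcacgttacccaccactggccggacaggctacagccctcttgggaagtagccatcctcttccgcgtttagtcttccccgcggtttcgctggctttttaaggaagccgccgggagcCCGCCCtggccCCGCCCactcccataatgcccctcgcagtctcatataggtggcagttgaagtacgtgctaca
Sf3b6, chr12:4817358-4817607, plus strand: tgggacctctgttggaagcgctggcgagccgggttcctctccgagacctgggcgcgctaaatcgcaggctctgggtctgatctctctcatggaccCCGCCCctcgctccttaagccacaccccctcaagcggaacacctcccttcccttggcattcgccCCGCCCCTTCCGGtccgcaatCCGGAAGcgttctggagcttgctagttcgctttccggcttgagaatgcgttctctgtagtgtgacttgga

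Aqr had a CCAAT box and an ETS match in these bases, and Sf3b6 had 2 GC boxes and 2 ETS matches. Hnrnpul1 held 3 CCAAT boxes, a GC box and a YY1 match, Hnrnph2 held 3 CCAAT boxes and 2 GC boxes, and Sf3b1 held 2 GC boxes. No motif was common to the 3 lower genes and missing from the higher ones: the GC box, which all 3 lower genes had, was also in Sf3b6. RefSeq windows of 300 bases (250 before to 50 after the start) were listed for 51 of the 57 genes, 71 windows in all. The ETS letters were in 24 of these 71 windows (33.8%), against 14.9% of the 13339 windows of compared genes and 8.86% of all 32851 windows. By family they were in 7 of 8 Sf3 windows, 5 of 13 Srsf, 4 of 24 Hnrnp, 4 of 13 Prpf and 3 of 12 Snrp windows. The GC box was in 60.6% of the splicing factor windows and 57.1% of those of compared genes, the CCAAT box in 47.9% and 37.4%, the E-box in 14.1% and 9.37%, the TATA box in 9.86% and 8.74%, the YY1 letters in 4.23% and 3.85%, and the NRF1 letters in 2.82% and 4.63%. In Sf3b6 a GC box and an ETS match stand side by side and share no base, so they print as 1 run of capitals. The median ratio of observed to expected CpG was 0.900 in the splicing factor windows, 0.706 in those of compared genes and 0.384 in all windows. These matches describe letters and are not binding sites.

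Of the hnRNP genes, 12 of 16 lay below 0, against 50.5% of all compared genes. Their median log2 ratio was -0.08, against -0.004 for all compared genes. The probe SD is a spread of single ratios and does not apply to this median. The lowest was Hnrnpul1, which encodes a protein related to hnRNP U. Its compared probe read 1.15 in the mDom-/- pool and 1.79 in the wild-type pool, 1.56-fold lower in the mDom-/- pool. With the floor at the 60th percentile its log2 ratio was -0.02, short of the rule and no longer the lowest of the family. A second Hnrnpul1 probe was below the floor on both arrays. Hnrnph2, the X-linked partner of Hnrnph1 that binds runs of G, read 7.54 in the mDom-/- pool and 11.4 in the wild-type pool, 1.52-fold lower. Hnrnph1 went the other way, with 185.9 in the mDom-/- pool and 164.4 in the wild-type pool, a log2 ratio of 0.18, the highest of the family. The close paralogues therefore differed in direction, by more than the probe SD, although Hnrnph1 lay within that SD of 0. With quantile normalization Hnrnph1 had 0.09, and with loess 0.03, so its own direction was barely above 0 there.

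Hnrnpr, which encodes an RNA-binding protein close to Syncrip, read 3.98 in the mDom-/- pool and 5.71 in the wild-type pool, 1.44-fold lower and just outside the 1.5-fold rule. Its second probe, close to the floor, read 0.558 in the mDom-/- pool and 0.523 in the wild-type pool, with a log2 ratio of 0.05. Hnrnpk, whose product binds runs of C, read 14.2 in the mDom-/- pool and 18.9 in the wild-type pool (log2 ratio -0.41). Hnrnpu, a nuclear scaffold protein, read 19.8 in the mDom-/- pool and 24.8 in the wild-type pool (log2 ratio -0.32). These 5 genes, from Hnrnpul1 to Hnrnpu, were the hnRNP genes more than 0.25 from 0, and all read lower in the mDom-/- pool. The other 11 of 16 lay within 0.25 of 0, against 63.7% of all compared genes and 66.3% of those measured on both arrays.

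Hnrnpa3, Hnrnpa2b1 and Hnrnpab, which encode abundant packaging proteins, were above 0 by less than the probe SD, and were grouped here after their values were seen. Hnrnpa1, the best-known relative of these genes, had no probe of its own, and a probe it shares with Gm10052 had a log2 ratio of -0.13. Hnrnpa3 read 897.2 in the mDom-/- pool and 808.1 in the wild-type pool, with a log2 ratio of 0.15. Hnrnpa2b1 read 304.6 in the mDom-/- pool and 276.0 in the wild-type pool (0.14), and its second probe read 117.7 in the mDom-/- pool and 105.9 in the wild-type pool (0.15). Hnrnpab had 0.10. With loess, which corrects ratios for brightness, these genes had log2 ratios of -0.11 (Hnrnpa3), -0.04 (Hnrnpa2b1) and -0.08 (Hnrnpab), so their direction was not stable. Hnrnpc, whose product binds nascent transcripts as a tetramer, read 45.9 in the mDom-/- pool and 46.2 in the wild-type pool. Hnrnpf (-0.03), Hnrnpd (-0.05), Hnrnpm (-0.07), Hnrnpdl (-0.10), Hnrnpll (-0.15) and Hnrnpl (-0.18) were all within the probe SD of 0 on the log2 scale on their brightest probes. A second Hnrnpd probe, near the floor, had -0.46, and the mean over both was -0.26, outside the probe SD.

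**Figure D2:**
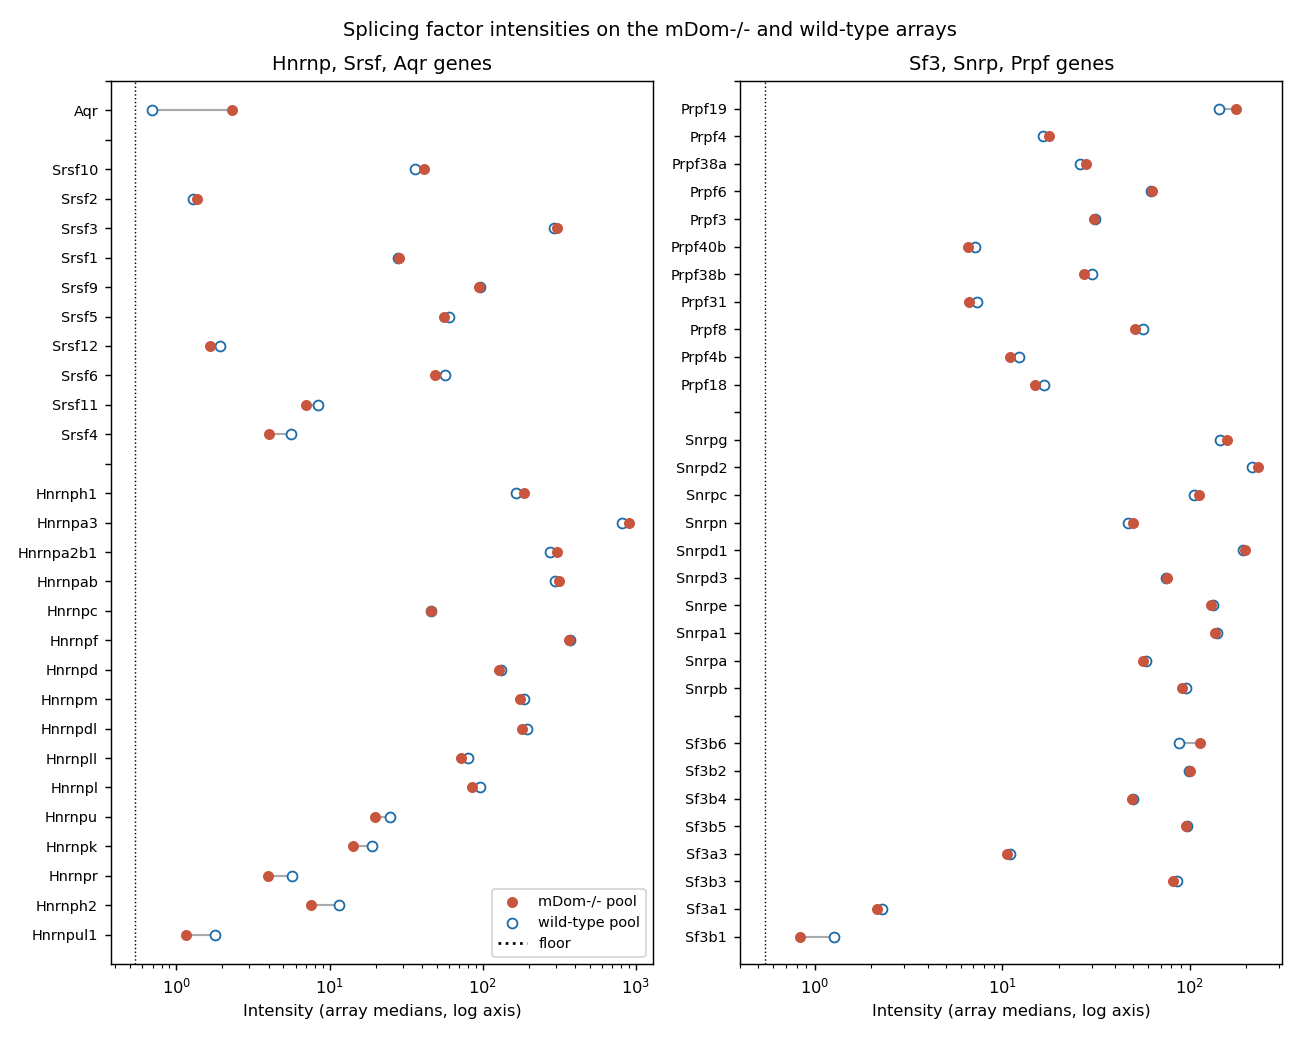
Intensity of each compared splicing factor gene (array medians, log axis) in the mDom-/- pool (filled red) and the wild-type pool (open blue), genes ordered by log2 ratio within each family, with the floor of 0.541 as a dotted line. Most pairs of points nearly coincide, and the widest gaps belong to Aqr, Hnrnpul1, Hnrnph2 and Sf3b1; levels of different genes are not comparable.

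Among the 10 SR protein genes, 4 lay above 0 and 6 below, with a median log2 ratio of -0.07 and none 1.5-fold apart. Srsf4, which encodes one of the longer SR proteins, was lowest, with 4.01 in the mDom-/- pool and 5.63 in the wild-type pool, 1.40-fold lower. Srsf11 read 7.00 in the mDom-/- pool and 8.41 in the wild-type pool (log2 ratio -0.26). Srsf6 read 48.7 in the mDom-/- pool and 57.1 in the wild-type pool (log2 ratio -0.23). Srsf10, known in human cell lines as a splicing repressor once dephosphorylated, was highest, with 41.7 in the mDom-/- pool and 36.1 in the wild-type pool, a log2 ratio of 0.21. Srsf4 and Srsf11 were the members outside the probe SD.

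Srsf1, the classical SR protein gene, gave different values on its probes. It read 28.6 in the mDom-/- pool and 28.1 in the wild-type pool on its brightest probe, a log2 ratio of 0.03. A dimmer Srsf1 probe read 4.83 in the mDom-/- pool and 6.35 in the wild-type pool (-0.39), outside the probe SD, and the mean over both was -0.18. Srsf3, which encodes the shortest SR protein, read 303.6 in the mDom-/- pool and 292.5 in the wild-type pool (0.05). Srsf2 read 1.37 in the mDom-/- pool and 1.28 in the wild-type pool (0.10), and its second own probe was below the floor on both arrays. Srsf9 (-0.03), Srsf5 (-0.10) and Srsf12 (-0.20) completed the family.

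Over the 8 compared Sf3 genes the log2 ratios had a median of -0.04, with 2 above 0 and 6 below, and their extremes lay both in the SF3B complex. Sf3b1, whose product clamps the branch-point helix, read 0.837 in the mDom-/- pool and 1.26 in the wild-type pool, 1.51-fold lower. Both values were near the floor, and with the floor at the 60th percentile the gene was not compared. Sf3b6 (p14), which contacts the branch-point adenosine, read 113.1 in the mDom-/- pool and 87.5 in the wild-type pool. It was 1.29-fold higher, a log2 ratio of 0.37, and kept 0.26 with quantile normalization and 0.27 with loess. Of the bright genes it was the one farthest above 0.

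The other SF3B genes, Sf3b2 (0.02), Sf3b4 (-0.02), Sf3b5 (-0.02) and Sf3b3 (-0.08), were within 0.1 of 0 on the log2 scale. Sf3b2 read 100.5 in the mDom-/- pool and 99.3 in the wild-type pool. The 3 probes of Sf3b3 had log2 ratios of -0.08, -0.15 and 0.09. For SF3A, Sf3a3 read 10.6 in the mDom-/- pool and 11.1 in the wild-type pool (-0.06), and Sf3a1 read 2.15 in the mDom-/- pool and 2.27 in the wild-type pool (-0.08).

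Genes for the snRNP proteins were the tightest family, with all 10 log2 ratios between -0.08 and 0.11 on the brightest probes. The lowest was Snrpb, which encodes the Sm proteins B and B′, with 90.8 in the mDom-/- pool and 96.0 in the wild-type pool. The highest was Snrpg, with 158.1 in the mDom-/- pool and 146.0 in the wild-type pool. All 10 were in the brightest 25% of the genes measured on both arrays, whereas the other families also held dimmer genes. The spread of all genes was smallest in that band, with a robust SD of 0.19 against 0.35 in the dimmest 25%. Over the 7 compared genes of the Sm ring, 5 lay above 0 and 2 below, with a median of 0.04, but with loess 6 of 7 lay below 0 and the median was -0.08. Snrpd2 read 231.1 in the mDom-/- pool and 214.5 in the wild-type pool (0.11), while Snrpd1 (0.04), Snrpd3 (0.003) and Snrpe (-0.04) were nearer to 0. A second, dimmer Snrpd3 probe had -0.17. Snrpn, the imprinted gene for a neuronal form of the Sm B protein, read 49.6 in the mDom-/- pool and 46.9 in the wild-type pool (0.08), and differed from Snrpb by less than the probe SD. Of the proteins particular to the U1 and U2 snRNPs, Snrpc had 0.10, Snrpa1 -0.04 and Snrpa -0.06. The median of the whole family was 0.02, and its direction was not stable: it was -0.07 with quantile normalization and -0.10 with loess, where 9 of 10 genes lay below 0.

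The 11 PRP genes had a median log2 ratio of -0.12, with 4 above 0, 7 below and none 1.5-fold apart. Prpf19, the ubiquitin ligase at the centre of the complex that activates the spliceosome, was highest on its brightest probe, with 176.5 in the mDom-/- pool and 143.3 in the wild-type pool (0.30). Its other probes went the other way. One read 4.78 in the mDom-/- pool and 6.71 in the wild-type pool (-0.49), and the other read 1.60 in the mDom-/- pool and 3.12 in the wild-type pool (-0.97). Of the tri-snRNP proteins, Prpf8, the scaffold around the catalytic centre, read 50.8 in the mDom-/- pool and 56.3 in the wild-type pool (-0.15). Prpf31 (-0.15), Prpf3 (-0.02), Prpf6 (0.02) and Prpf4 (0.11) were as near to 0 or nearer. The lowest gene was Prpf18, a second-step factor, with 15.0 in the mDom-/- pool and 16.7 in the wild-type pool (-0.16), closely followed by the brighter probe of the kinase gene Prpf4b (-0.16), whose second probe had 0.25. The second probe of Prpf6 had 0.39. Prpf38b had -0.14, Prpf40b -0.12 and Prpf38a 0.10.

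Where a splicing factor gene had several compared probes, they agreed in sign for 6 of 13 genes. The like share over all genes was not counted. The SD of a log2 ratio between probes was 0.22 over the 10 of these genes with 2 probes measured on both arrays, against 0.25 over all genes. That SD leaves out Sf3b3, Prpf19 and Hnrnpr, and the probes of Prpf19 and Hnrnpr differed most, so it does not show closer agreement than on the whole array. Probes of Hnrnpa2b1, Snrpc and Hnrnpll differed by less than 0.1 on the log2 scale. Those of Prpf4, Hnrnpr and Prpf19 differed by 0.54, 0.57 and 1.27. Prpf4 had 17.8 in the mDom-/- pool and 16.5 in the wild-type pool on its brighter probe, and 4.17 in the mDom-/- pool and 5.60 in the wild-type pool on the dimmer one. The dimmest probe had the lower log2 ratio in 8 of 13 genes, against 55.4% of 1705 genes on the whole array. Over the probes, 57 of the 71 compared ones were annotated to a RefSeq mRNA of their gene, with a median log2 ratio of -0.06, and the 14 annotated to other sequences had 0.06.

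**Figure D3:**
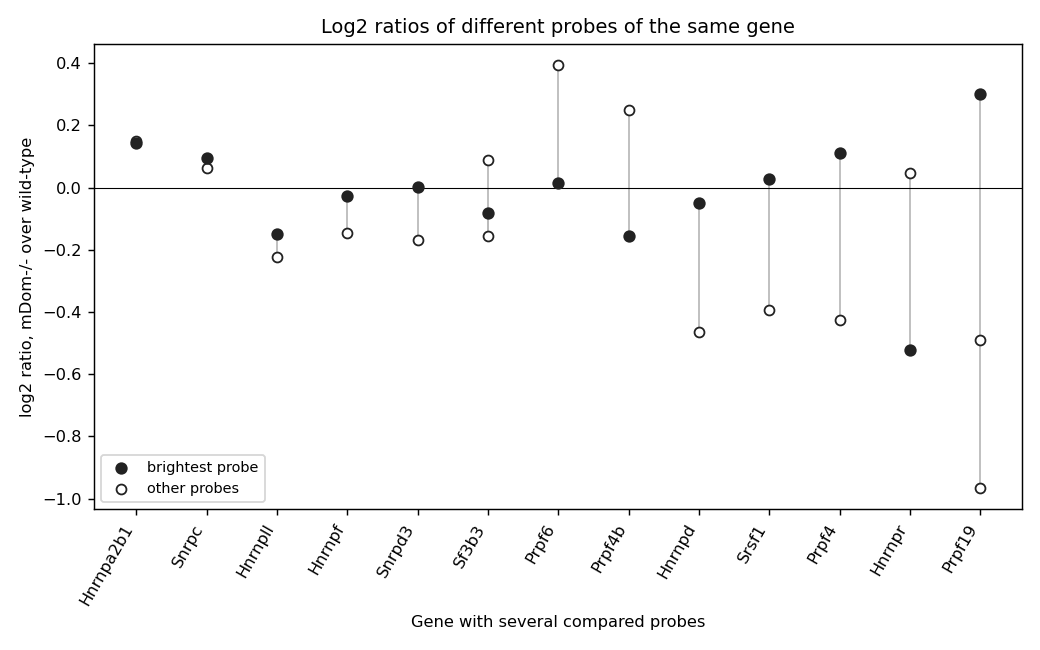
Log2 ratios (mDom-/- over wild-type) of every compared probe for the 13 splicing factor genes with several, filled for the brightest probe and open for the others, genes ordered by the range of their probes. The range grows from 0.01 for Hnrnpa2b1 to 1.27 for Prpf19, and for 7 of the 13 genes the probes lie on both sides of 0.

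Low log2 ratios occurred among dim and bright splicing factor genes: of the 7 lowest, 5 had a mean intensity of at most 10 array medians, and Hnrnpk and Hnrnpu were brighter. Of the 12 genes with a mean intensity of at most 10 array medians, 10 lay below 0, 5 lay within the probe SD of 0, and the median log2 ratio was -0.23, against 52.0%, 56.6% and -0.01 for all 8594 compared genes that dim. Of the 44 brighter ones, 25 lay below 0, 40 lay within the probe SD, and the median was -0.02, against 47.8%, 77.2% and 0.01 for all 4543 genes that bright. The difference between dim and bright members was not tested. In the brightest 25% of the genes measured on both arrays, which held 39 of the 56 splicing factors, their robust SD was 0.12, against 0.19 for all genes there.

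**Figure D4:**
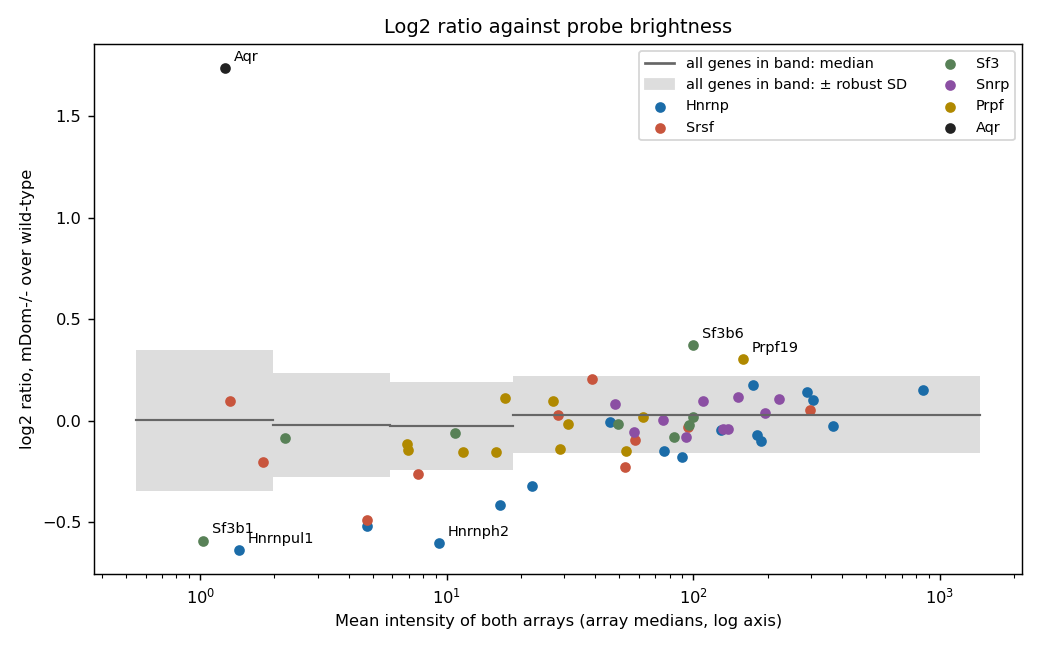
Log2 ratio (mDom-/- over wild-type) of the splicing factor genes against the mean intensity of both arrays (array medians, log axis), coloured by family, over the median (line) and robust SD (grey) of all genes in 4 bands of brightness. Right of 10, Sf3b6 and Prpf19 lie above the grey and Hnrnpk, Hnrnpu, Srsf6 and Hnrnpl below it. Left of 10, Aqr and Srsf2 lie above 0 and the other 10 genes below.

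The share of splicing factor genes below 0 depended on the scaling. It was 35 of 56 (62.5%) after division by the median, against 50.5% of all compared genes, and 31 of 56 (55.4%) with the 75th percentile, against 47.1% of all genes. It was 41 of 56 (73.2%) with quantile normalization, against 49.95% of all genes, and 46 of 56 (82.1%) with loess, against 50.6%. The median log2 ratio of the 56 genes was -0.10 with quantile normalization and -0.12 with loess. With loess 15 of 16 hnRNP genes lay below 0. Aqr, Hnrnpul1 and Sf3b1 remained past 1.5-fold under quantile normalization and loess, while Hnrnph2 had -0.57 with each, short of the rule.

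Lists of other splicing genes were set beside these families, with the genes above left out. Over all compared genes, 50.5% lay below 0, 4.09% were at least 1.5-fold higher and 4.35% lower. Of 51 compared spliceosome components outside the families, 27 lay above 0 and 24 below, with a median log2 ratio of 0.01 (-0.04 with quantile normalization or loess) and 1 gene past 1.5-fold. That gene was the helicase gene Ddx42, with 0.654 in the mDom-/- pool and 1.09 in the wild-type pool, near the floor. The highest was Dhx38, a helicase of the second splicing step, with 3.26 in the mDom-/- pool and 2.41 in the wild-type pool (0.44). Of 36 other splicing regulators, 12 lay above 0 and 24 below, with a median of -0.05 (-0.09 with quantile normalization and -0.14 with loess). Tra2b, an SR-like activator of exons, was the one past 1.5-fold, with 1.05 in the mDom-/- pool and 0.624 in the wild-type pool. That wild-type value was near the floor, and with the floor at the 60th percentile Tra2b was not compared. Son, a speckle protein, was lowest at -0.56. The 8 compared genes for kinases and import of SR proteins had a median of -0.01, between Srpk2 at -0.26 and Dyrk1a at 0.15 among those measured on both arrays. The 7 genes of the exon junction complex and nonsense-mediated decay had -0.01, from Smg1 at -0.28 to Upf1 at 0.07 among those measured on both.

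Genes for snRNP assembly lay below 0 in 14 of 16 cases, against 50.5% of all compared genes, and in 13 to 14 under every scaling and floor tried. Their median log2 ratio was -0.11. All but Prmt5 and Wdr77, 14 of 16, lay within the probe SD of 0. The share was 63.7% of all compared genes and 66.3% of those measured on both arrays. Prmt5, the arginine methyltransferase that modifies Sm proteins before they are loaded, was lowest, with 3.61 in the mDom-/- pool and 7.15 in the wild-type pool, 1.98-fold lower. Wdr77, its obligate partner in the methylosome, was next, with 8.56 in the mDom-/- pool and 12.5 in the wild-type pool, 1.46-fold lower. Wdr77 was named after its value was seen. Smn1, the core of the SMN complex, read 32.6 in the mDom-/- pool and 34.9 in the wild-type pool (-0.10). Snupn, the snRNP import adaptor, was highest at 0.24. 

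**Figure D5:**
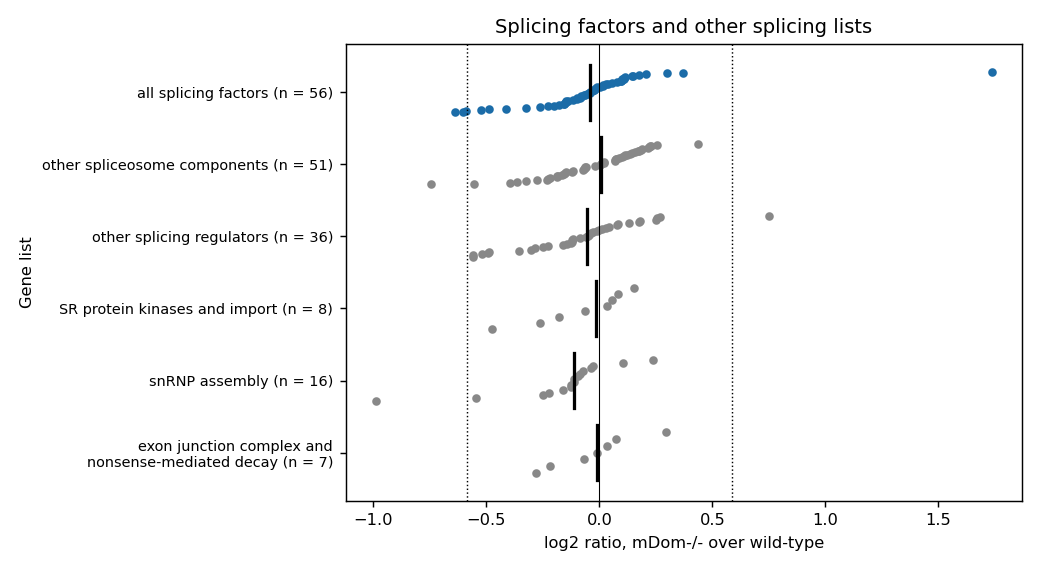
Log2 ratios (mDom-/- over wild-type) of the 56 splicing factor genes (blue) and of 5 other splicing lists (grey), 1 point per gene, with vertical bars at the medians and dotted lines at 1.5-fold. The medians lie between -0.11 (snRNP assembly) and 0.01 (other spliceosome components), and Aqr at 1.74 is the farthest point.

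For scale, 57 translation factor genes had a median log2 ratio of -0.02, and -0.10 with loess. The median was 0.04 over 35 proteasome subunit genes (-0.08 with loess) and 0.22 over 64 cytosolic ribosomal protein genes (0.03 with loess). Whether the splicing factors differ from these groups was not tested. Ep400 could not check the labels, since its 2 probes read -0.029 and 0.071 in the mDom-/- pool and 0.215 and 0.470 in the wild-type pool, all under the floor. Markers of the embryo were present, with 6 of 7 neural tube, 6 of 6 somite and 6 of 7 heart genes above the floor on both arrays. Some of them read far lower in the mDom-/- pool: Zic1 (log2 ratio -1.74) and En2 (-1.54) of the neural tube, and Myl2 (-1.52), Myh7 (-1.44) and Tnni3 (-1.15) of the heart. The other compared neural tube markers were nearer to 0: Pax6 (-0.38), Otx2 (-0.22), Nes (-0.12) and Sox1 (0.09). So were the other compared heart markers: Tnnt2 (-0.06), Nkx2-5 (0.04) and Myl7 (0.08). The summed signal was 31.5 in the mDom-/- pool and 48.1 in the wild-type pool for the neural tube, 104.0 in the mDom-/- pool and 100.2 in the wild-type pool for the somites, and 436.1 in the mDom-/- pool and 438.9 in the wild-type pool for the heart, where Myl7 makes up most of it. Over the 12 visceral endoderm and yolk sac markers the sum was 928.4 in the mDom-/- pool and 715.2 in the wild-type pool. Of the 11 compared, 6 lay above 0, with Apoc2 (0.92) and Ttr (0.59) carrying much of the sum, and 5 below, from Lrp2 (-0.74) and Cubn (-0.62) to Apoa1 (-0.13). Over 8 primitive red cell markers it was 41.2 in the mDom-/- pool and 351.7 in the wild-type pool. Most of the wild-type sum came from Hba-x and Hbb-y. Hba-x read 22.4 in the mDom-/- pool and 199.9 in the wild-type pool, and Hbb-y 5.12 and 133.8. Slc4a1 and Gata1 were under the floor in the mDom-/- pool and read 0.563 and 0.725 in the wild-type pool. Of the 7 compared, 6 lay below 0, with Rhag at -0.01, and Epb42 lay above 0 at 0.45. Over 6 trophoblast and decidua markers the sum was 22.3 in the mDom-/- pool and 19.9 in the wild-type pool. The part of these tissues in the splicing factor values was not tested.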

How the data were processed

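Images were read with CodeLink System Software, per the labels, and the authors deposited linear spot intensities for each array. Nothing used here states its version, background correction, scaling or detection flags. The columns had medians of 1.05 each and maxima of 1714 (mDom-/-) and 1374 (wild-type), so they were already scaled, and the code -9999 was read as no value (106 mDom-/- and 105 wild-type probes). Groups came from the sample titles. Probes were named from the platform annotation, updated by Entrez identifier through the RefSeq table of GRCm38.p6 for 21487 of 21615 probes with 1 symbol. The 681 probes with several symbols were left out.

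Arrays were scaled to their medians. As floor served the larger of the 2 values found at the 40th percentile, and probes under it on both arrays were not compared. A gene took the compared probe with the highest mean log2 intensity. Named genes were Aqr, each member past 1.5-fold, the extremes of each family and list measured on both arrays, members whose probes differed by over 0.5 on the log2 scale, and Ep400. Other members are given so that each is accounted for. The members and lists were chosen with earlier results of these data known, and the Sm ring, U1 and U2, SF3A, SF3B and tri-snRNP groups, the dim and bright split at 10, the motifs and the 5 printed promoters after the values were seen. The number of arrays limits the precision. Alternatives were no rescaling, the 75th percentile, quantile normalization, loess (span 0.3), a floor at the 25th percentile, at the 60th or left out, the mean over probes, and genes measured on both arrays only. Python 3.11.15, numpy 2.4.6, pandas 2.3.3, statsmodels 0.14.6 and matplotlib 3.10.9 were used, and the steps were tested on simulated data.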

Additional observations from a re-analysis of the deposited data

How the results depend on the processing

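Of 135 counts and medians recomputed under 9 alternatives, 121 kept within the tolerance (1.5 times for a count, the probe SD over the square root of the number of genes for a median) and 14 moved. Several alternatives could hardly move the splicing factor values, so neither this tally nor that of the named genes measures stability. All 56 compared genes were already measured on both arrays, and both array medians were 1.05 before rescaling. With the floor at the 25th percentile or left out, the ratios of these 56 genes were unchanged. With the floor at the 60th percentile, 0 genes were 2-fold higher, 0 were 1.5-fold higher and 1 was 1.5-fold lower, since Aqr, Hnrnpul1 and Sf3b1 lie near or under that floor. With the 75th percentile, 1 gene was 1.5-fold lower. Quantile normalization gave medians of -0.096 for all splicing factors, -0.195 for Hnrnp, -0.067 for Snrp and -0.044 for other spliceosome components. Loess gave -0.120 for all splicing factors, -0.229 for Hnrnp, -0.147 for Srsf, -0.098 for Snrp, -0.040 for other spliceosome components and -0.138 for other splicing regulators. The cause of these shifts was not tested. Of 211 values of the 24 genes named by rule, 206 moved by less than the probe SD and none turned its sign while past 1.5-fold. The others were Aqr (0.38) and Hnrnpul1 (-0.02) with the 60th percentile floor, and Hnrnpr (-0.24), Prpf19 (-0.38) and Prpf4 (-0.16) with the mean over probes. No paired analysis was possible because each group has 1 array. Dim probes near the floor give the least certain ratios.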

Other observations

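In all, 10 probes were annotated to a splicing factor together with another gene, so they stood outside the comparison. These values cannot be assigned to either gene of a pair. Of 3 probes shared by Snurf and Snrpn, which are read from 1 transcript, one read 60.4 in the mDom-/- pool and 51.0 in the wild-type pool (log2 ratio 0.24), one read 44.0 in both pools, and the last was under the floor on both arrays. The probe of Snrpn alone had 0.08. A probe shared by Mettl23 and Srsf2 read 43.1 in the mDom-/- pool and 39.6 in the wild-type pool (0.12), next to 0.10 for the dim probe of Srsf2 alone. A second probe of that pair read 0.970 in the mDom-/- pool and 0.832 in the wild-type pool (0.22).

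Hnrnpa1 and Snrpb2, without a probe of their own, appeared in such pairs at high signal. The probe shared by Hnrnpa1 and Gm10052 read 46.8 in the mDom-/- pool and 51.3 in the wild-type pool (-0.13). The probe shared by Snrpb2, a U2 snRNP protein gene, and Atf4 read 221.2 in the mDom-/- pool and 195.7 in the wild-type pool (0.18). The probe shared by Olfm1 and Hnrnpa0 had 0.04, that of Nrd1 and Hnrnpd -0.06, and that of Slc25a35 and Hnrnpab was under the floor on both arrays.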
